A study of Mus musculus with 11 samples.

Results

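The collagen genes were taken as every entry of the raw count table whose symbol reads Col, a number, the letter a and a number, which gave 44 of 22619 genes. A gene was taken as present when it stood at 1 CPM (the read count scaled to the size of its library) or more, with library sizes scaled by TMM factors, in at least 1 library. By that measure 22 of the 44 collagens (50%) were present, against 13496 of all 22619 genes (59.7%). Across groups 1 collagen changed in the test over all genes: Col18a1 was higher in the Ofd1-mutant clones than in the untreated parental cells. That call counted clone R14 through 2 libraries, and it was lost (adjusted p = 0.0616) when they were summed to 1.

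All 11 libraries came from SMB21, a mouse medulloblastoma line grown as neurospheres, with strain background Ptch1tm1Mps/J, a Ptch-mutant genotype and the age label adult, so every group carried the Ptch lesion. The groups were the untreated parental line (3 libraries), the parental line after 24 h with sonidegib (2 libraries), Sufu-mutant clones R13 and R1 (1 library each), and Ofd1-mutant clones R14 (2 libraries), R16 and R25 (1 library each). Sonidegib inhibits Smoothened, the membrane protein that passes on the Hedgehog signal. The clones were picked from a transposon screen on resistance to drug. Nothing in the labels says if they were kept in drug. Each clone class rests on 2 or 3 clones, and p-values measure the spread between these cultures or clones, with R14 entering as 2 libraries of 1 clone.

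Collagens are the triple-helical proteins of the extracellular matrix. Fibrillar collagens build the fibres of cartilage, bone and skin. FACIT collagens sit on the surface of those fibres, network collagens such as type IV form the sheet of basement membranes, and multiplexins (types XV and XVIII) join basement membranes to the matrix beside them. Beaded-filament (type VI), anchoring and transmembrane collagens make up the other classes. In brain, most collagen is made by vessel, meningeal and pericyte cells rather than by neurons, and granule cell progenitors, the cells from which Hedgehog-driven medulloblastoma arises, are not known as large producers.

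Each library held between 24308451 and 38241595 counts, and the collagens together took between 0.0138% and 0.0458% of them. Ofd1 itself stood at 9.27 to 23.4 CPM in the Ofd1-mutant libraries and at 35.4 to 42.9 CPM in the parental ones. For Sufu, clone R13 held 2.76 CPM and clone R1 held 17.7 CPM, against 27.7 to 29.6 CPM in the parental libraries. The Ofd1-mutant libraries held 12.0 to 19.2 CPM of Sufu, so R1 lay inside their range, and sonidegib replicate 2 held 5.60 CPM. Sonidegib replicate 2 also held 23.4 CPM of Ofd1, the level of the highest Ofd1-mutant library. The Sufu-mutant libraries held 42.6 and 40.3 CPM of Ofd1, and sonidegib replicate 1 held 45.0 CPM. The level of Ofd1 thus set the Ofd1-mutant libraries apart from all others except sonidegib replicate 2. The level of Sufu did not set the Sufu-mutant libraries apart. Sonidegib replicate 2 also stood apart in transcript length: over 11905 genes, the Spearman correlation of its deviation with length was -0.455, against -0.0824 to 0.158 in the other libraries. The values of collagens described under sonidegib are therefore given by library, and counts and medians over genes pool both. Of the 10 granule cell progenitor markers, 10 reached 1 CPM, and their summed level was 2136 to 4199 CPM. Markers of matrix-forming and vascular cells were mixed: 9 of 14 fibroblast and pericyte markers reached 1 CPM, with summed levels of 160 to 380 CPM in parental, 63.7 to 94.0 CPM in sonidegib, 231 to 482 CPM in Sufu-mutant and 253 to 440 CPM in Ofd1-mutant libraries, and Pdgfra was the highest of them in each group. Pdgfra alone stood at 146 to 364 CPM in parental and at 50.3 and 79.6 CPM in sonidegib libraries. In Sufu-mutant libraries it held 186 and 465 CPM, and in Ofd1-mutant libraries 219 to 410 CPM. This 1 gene thus made up most of each sum. The defining fibroblast gene Dcn had 7 counts and the pericyte gene Pdgfrb had 5 counts over all 11 libraries. Of 12 endothelial markers 4 reached 1 CPM, Cldn5 had no count in any library, and the summed level was 6.21 to 16.7 CPM outside the Ofd1 clones and 9.52 to 23.2 CPM in them. Of 10 meningeal markers 8 reached 1 CPM, with a summed level of 95.8 to 231 CPM, highest in the Sufu-mutant libraries at 230 and 231 CPM. Igfbp2, the highest of them, made up 116 and 131 CPM of those 2 sums. The meningeal markers Slc6a13 and Gjb2 had 13 and 3 counts over all 11 libraries. The part of such cells in the results that follow was not tested, and in bulk RNA fewer cells of a type and less RNA per cell cannot be told apart.

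**Figure D1:**
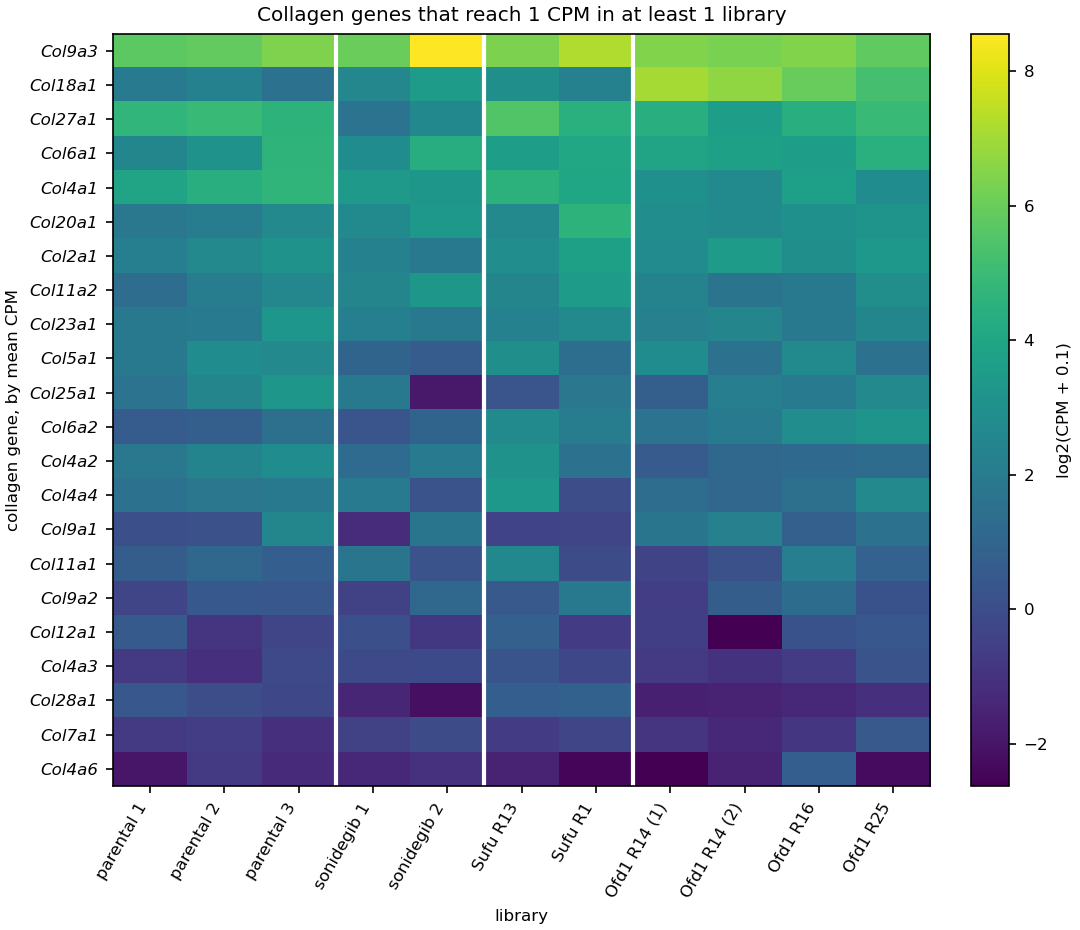
Heat map of log2(CPM + 0.1) for the 22 collagens that reached 1 CPM (rows, ordered by mean CPM) in the 11 libraries (columns, white lines between groups). Col9a3 is bright in all libraries, at 53.8 to 376 CPM, and Col18a1 is bright in the 4 Ofd1-mutant libraries, at 37.8 to 132 CPM.

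The collagens that were present came from every class. The counts at 1 CPM were 5 of 11 fibrillar, 5 of 9 FACIT, 5 of 9 network, 4 of 9 beaded-filament, anchoring and other, 2 of 4 transmembrane and 1 of 2 multiplexin collagens. In every one of the 11 libraries, 12 collagens stood at 1 CPM or more. By group mean the number at 1 CPM or more was 17 in parental, 17 in sonidegib, 18 in Sufu-mutant and 17 in Ofd1-mutant libraries, so the groups held nearly equal numbers of collagens. Of the 22 collagens that stayed under 1 CPM everywhere, 11 had fewer than 20 counts over all libraries. The main collagens of fibroblasts stayed under 1 CPM in every library: Col1a1 reached 0.807 CPM at most, with 167 counts in total. Col1a2 had 9 counts and Col3a1 had 5 counts in total. Col8a1, a short-chain network collagen of vessels and the cornea, had 15 counts, of which 14 were in parental replicate 1, and 8 of the 9 counts of Col1a2 were in the same library.

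Just inside the level of 1 CPM lay Col4a3, a chain of the basement membrane of kidney and lung, at 1.12 CPM in its highest library, Sufu-mutant R13. Just outside lay Col5a3, a minor fibrillar chain, at 0.975 CPM in its highest library.

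Comparing genes per kilobase of exon, the mean over all libraries was 27.8 CPM per kb for Col9a3, a FACIT chain of type IX collagen that decorates cartilage fibrils. The next were Col18a1 at 4.87, Col6a1 at 3.26, Col4a1 at 1.87, Col27a1 at 1.69 and Col20a1 at 1.61 CPM per kb. In parental cells Col18a1 stood at 0.542 CPM per kb, below Col6a1 at 2.96 and Col4a1 at 2.73. In the Ofd1-mutant group it stood at 11.9 CPM per kb, second to Col9a3 at 20.1. The collagens that reached 1 CPM are long genes, with a median exon length of 7718.5 bases against 4484 for all genes that reached it, so their CPM overstates their number of transcripts relative to a typical gene.

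Partner chains stood at unequal levels. Type IX collagen is assembled from chains of Col9a1, Col9a2 and Col9a3. Col9a3 stood between 53.8 and 376 CPM over the 11 libraries, while Col9a1 stood between 0.334 and 5.52 CPM and Col9a2 between 0.559 and 3.65 CPM. Type IV collagen of most basement membranes is assembled from chains of Col4a1 and Col4a2. Col4a1 exceeded Col4a2 in every library, by 2.54 to 5.78 times in CPM, and the log2 levels of the pair followed each other over the 11 libraries (Pearson r = 0.84, a description over libraries that share groups). These genes lie head to head and their annotated spans overlap on chromosome 8, as do those of Col4a3 and Col4a4 on chromosome 1. The libraries were stranded, but whether the counting used strand is not given in the sources used here, so reads in those overlaps cannot be told apart.

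The summed level of the 44 collagens was 143, 172 and 235 CPM in parental replicates 1, 2 and 3, against 135 CPM in the first sonidegib library and 470 CPM in the other. Sufu-mutant R13 held 245 CPM and R1 held 288 CPM. The Ofd1-mutant libraries held 309 and 266 CPM for R14, 257 CPM for R16 and 226 CPM for R25. Without Col9a3 and Col18a1 the sums were 85.6, 109 and 149 CPM in parental, 64.8 and 82.1 CPM in sonidegib, 155 and 134 CPM in Sufu-mutant and 91.8, 83.1, 107 and 131 CPM in Ofd1-mutant libraries. Col18a1 made up 1.21% to 2.76% of the collagen sum in parental, 2.39% to 4.26% in sonidegib, 1.66% to 3.15% in Sufu-mutant and 16.7% to 42.6% in Ofd1-mutant libraries. Col9a3 made up 80.1% of it in sonidegib replicate 2 and 25.2% to 51.6% in the others.

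Col18a1 codes for the core protein of type XVIII collagen, a basement membrane proteoglycan whose C-terminal piece is endostatin. In parental replicates 1, 2 and 3 it stood at 3.83, 4.75 and 2.84 CPM, from 121, 179 and 96 counts. In the Ofd1-mutant libraries it stood at 132 and 103 CPM in the pair from clone R14, 62.7 CPM in R16 and 37.8 CPM in R25, from 4242, 3331, 1929 and 1455 counts. All 4 Ofd1 libraries lay above all 7 others, and the R14 pair lay within 0.35 of each other on the log2 scale. The 3 clones spanned 1.64. The Ofd1-mutant mean was 83.8 ± 41.8 CPM (SD, n = 4) and the parental mean 3.81 ± 0.959 CPM (n = 3). The log2 difference was 4.46 ± 0.47 (SE), with an adjusted p of 0.0233 in the edgeR quasi-likelihood test. This was the collagen for which the group had been singled out earlier, so the value is a description here. Of the 7 fibroblast and pericyte markers tested in the same comparison, 1 was called, Thy1, a surface protein of neurons as well as fibroblasts, and 3 were higher at an unadjusted p under 0.05. Thy1 stood at 1.99, 1.96 and 1.09 CPM in parental and at 12.6, 10.7, 4.84 and 10.6 CPM in Ofd1-mutant libraries (log2 difference 2.53 ± 0.40, adjusted p = 0.0487). With the R14 libraries summed to 1, no gene was called higher, so the call for Thy1 was lost. That call was also lost without parental replicate 1, parental replicate 2 or Ofd1-mutant replicate 2, where no gene was called. Thy1 also stood at 25.9 CPM in Sufu-mutant R13 and 1.01 CPM in R1, where Col18a1 stood at 7.69 and 4.79 CPM. Of 8 astrocyte markers tested, 4 were lower at an unadjusted p under 0.05 and 0 were called. Of all genes tested in this comparison, 13.8% had an unadjusted p under 0.05 in either direction and 0.363% were called. The part of such markers in the Col18a1 difference was not tested.

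The call for Col18a1 was lost when the R14 pair was summed to 1 library (log2 difference 4.25, adjusted p = 0.0616), without parental replicate 1 (adjusted p = 0.214), without parental replicate 2 (0.201) and without Ofd1-mutant replicate 2 (0.0721). The log2 difference stayed between 4.16 and 4.70 whichever library was left out.

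In the remaining groups Col18a1 lay between the parental and the Ofd1-mutant levels. Sufu-mutant R13 held 7.69 CPM and R1 held 4.79 CPM. Sonidegib replicate 1 held 5.74 CPM and replicate 2 held 11.2 CPM. Each of these lay above the highest parental library at 4.75 CPM, R1 by a very small margin. In the edgeR test the log2 difference from parental cells was 1.15 ± 0.44 (adjusted p = 0.341) for sonidegib. For Sufu-mutant libraries it was 0.73 ± 0.39 (adjusted p = 0.604). Against the Sufu-mutant libraries, in a comparison that uses the same 4 Ofd1-mutant libraries, Col18a1 was higher in Ofd1-mutant libraries by 3.72 ± 0.59 on the log2 scale (unadjusted p = 0.000406, adjusted p = 0.268). That difference did not pass the edgeR test over 14026 genes, in which 1 gene passed, and passed that of DESeq2.

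In the RefSeq annotation of GRCm38.p6, Col18a1 lies on the minus strand of chromosome 10 from 77052178 to 77166530, with annotated starts at 77166530 and 77113705, and counts per gene cannot tell transcripts from these starts apart. The files were aligned to mm9, so positions serve only to place the gene. Its 10 neighbours among the tested genes were taken in order of start, in equal number from each side. Among them the log2 difference between Ofd1-mutant and parental libraries ran from -0.29 to 1.58, and none passed the test. The largest of these was Col6a2, and the other 9, among them Slc19a1 at 0.34, Pofut2 at 0.09, Adarb1 at 0.16 and Col6a1 at 0.28, lay between -0.29 and 0.52.

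The stretches before an annotated start of Col18a1 and of Col27a1, the collagens with the lowest unadjusted p in the Ofd1 and the sonidegib comparison, are shown with 2 common promoter motifs in capitals: the GC box GGGCGG and the CCAAT box, each on either strand (CCGCCC and ATTGG on the reverse). The Col18a1 stretch is chr10:77166549-77166780 on the minus strand and the Col27a1 stretch chr4:63215162-63215411 on the plus strand, both from RefSeq on GRCm38.p6. The span of Col27a1 in that annotation begins at 63214009, so its stretch lies inside the annotated gene, before a start further in.
Col18a1: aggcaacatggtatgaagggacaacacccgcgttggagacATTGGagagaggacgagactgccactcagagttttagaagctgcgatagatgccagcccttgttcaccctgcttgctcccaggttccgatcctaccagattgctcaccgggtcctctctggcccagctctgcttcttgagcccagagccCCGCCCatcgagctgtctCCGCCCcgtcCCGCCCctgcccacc
Col27a1: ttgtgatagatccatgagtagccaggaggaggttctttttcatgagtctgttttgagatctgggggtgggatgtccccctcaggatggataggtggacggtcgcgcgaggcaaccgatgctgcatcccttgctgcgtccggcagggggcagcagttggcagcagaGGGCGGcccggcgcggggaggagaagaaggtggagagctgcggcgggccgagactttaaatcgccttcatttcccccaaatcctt

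The Col18a1 stretch held 3 GC boxes and 1 CCAAT box, and the Col27a1 stretch held 1 GC box. Of all 32851 RefSeq windows of 300 bases around a start, 35.7% held a GC box and 37.4% a CCAAT box. Of 38 such windows of 35 collagen genes, 23 (60.5%) held a GC box and 13 (34.2%) a CCAAT box. GACCACCCA, the sequence bound by Gli factors at Hedgehog targets, was in 0.253% of all windows and in 0 of the 38 collagen windows. These are matches of letters and say nothing of binding. Windows were found for 18 of the 22 collagens that reached 1 CPM, and Col2a1, Col4a3, Col9a3 and Col12a1 had no window.

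**Figure D2:**
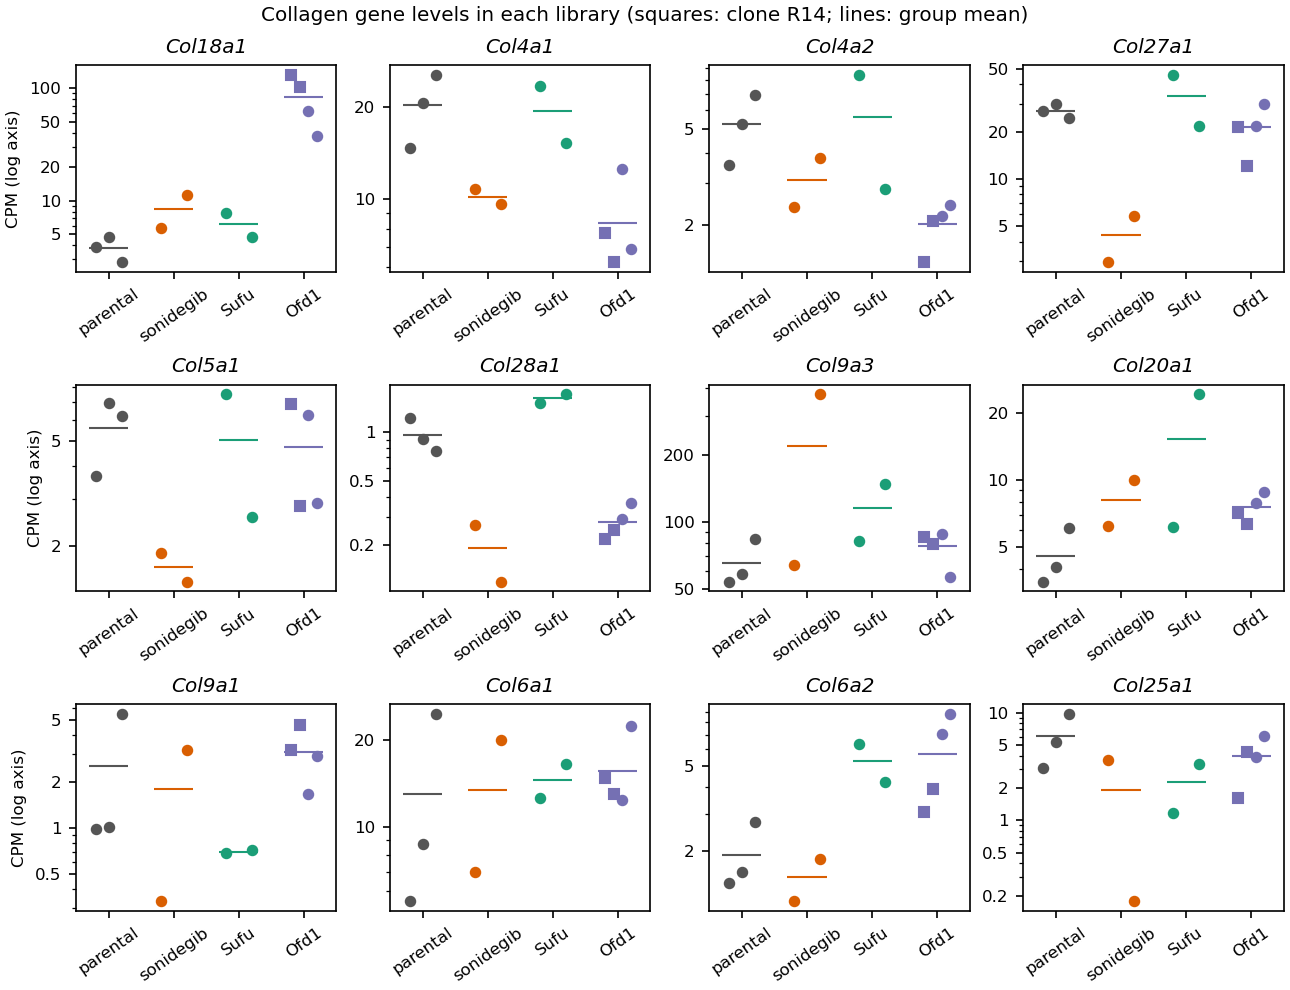
Levels of Col18a1, Col4a1, Col4a2, Col27a1, Col5a1, Col28a1, Col9a3, Col20a1, Col9a1, Col6a1, Col6a2 and Col25a1, with 1 point per library on a log CPM axis. Points are grouped as parental, sonidegib, Sufu mutant and Ofd1 mutant. Not all of these genes have a mean of 5 CPM or more, and Col2a1, Col11a2 and Col23a1, which do, are not drawn. The 4 Ofd1-mutant points of Col18a1 lie between 37.8 and 132 CPM, above all others, and the 2 sonidegib points of Col27a1, at 2.97 and 5.87 CPM, lie below all others.

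The Ofd1-mutant comparison tested 25 collagens, and 1 of them, Col18a1, was called, while 0.363% of all 13779 genes tested were called. At an unadjusted p under 0.05 there were 6 collagens against 13.8% of all genes, and in the same 6 the groups did not overlap. Higher ones were Col18a1, Col20a1 and Col6a2, and lower ones were Col4a1, Col4a2 and Col28a1. For all genes, 6.17% did not overlap and were higher and 7.25% did not overlap and were lower. The median log2 difference over the collagens tested was 0.233, with 17 above 0 and 8 below, against a median of 0.00794 over all genes tested. Beyond the genes given by rule, Col4a2, Col4a3, Col4a4, Col4a6, Col6a2 and Col28a1, as well as Col5a1, Col9a1, Col16a1, Col1a1 and Col25a1 below, were chosen after their values were seen.

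Of the 5 type IV chains tested in the Ofd1-mutant comparison, Col4a1 and Col4a2 lay below the parental libraries without passing the test, and Col4a3, Col4a4 and Col4a6 overlapped them, with log2 differences of 0.19, 0.03 and 0.53. Col4a1 stood at 14.7, 20.7 and 25.6 CPM in the parental libraries, at 7.76 and 6.22 CPM in clone R14, at 12.6 CPM in R16 and at 6.88 CPM in R25. All 4 Ofd1 libraries lay below the lowest parental one, and the log2 difference was -1.28 ± 0.29 (adjusted p = 0.110). Col4a2 stood at 3.54, 5.26 and 6.97 CPM in parental and at 1.40, 2.07, 2.18 and 2.41 CPM in Ofd1-mutant libraries, with a log2 difference of -1.37 ± 0.32 (adjusted p = 0.118). Both passed in DESeq2, which called 5 collagens and 5.46% of all genes. In the Sufu clones R13 held 23.6 CPM and R1 held 15.3 CPM of Col4a1, inside the parental range. Of Col4a2, R13 held 8.46 CPM, above the parental libraries, and R1 held 2.81 CPM, below them. The direct difference between Ofd1 and Sufu libraries was -1.24 ± 0.33 for Col4a1 (adjusted p = 0.404) and -1.50 ± 0.47 for Col4a2 (adjusted p = 0.453), with no overlap between the groups.

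Col28a1, a chain related to type VI collagen, was measured at low levels. It stood at 1.23, 0.903 and 0.768 CPM in parental, 0.267 and 0.119 CPM in sonidegib, 1.52 and 1.72 CPM in Sufu-mutant and 0.217, 0.248, 0.293 and 0.363 CPM in Ofd1-mutant libraries. The Ofd1 and sonidegib libraries lay below every parental library and the Sufu libraries above. The log2 difference of Ofd1-mutant from parental libraries was -1.76 ± 0.37 (adjusted p = 0.0894), and that from Sufu-mutant libraries was -2.53 ± 0.40 (adjusted p = 0.268).

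Beaded-filament type VI collagen needs chains of Col6a1 and Col6a2 and another chain. Col6a2 stood at 1.42, 1.59 and 2.75 CPM in parental, 1.17 and 1.85 CPM in sonidegib, 6.33 and 4.20 CPM in Sufu-mutant and 3.04, 3.90, 7.09 and 8.80 CPM in Ofd1-mutant libraries. All 6 clone libraries lay above the parental ones, although the lowest Ofd1 library, R14 at 3.04 CPM, was close to the highest parental library. Its log2 difference from parental cells was 1.58 ± 0.45 in Ofd1-mutant (adjusted p = 0.178) and 1.47 ± 0.45 in Sufu-mutant libraries (adjusted p = 0.438), comparisons that share the parental libraries. Col6a1 showed no such order: parental replicate 3 at 24.6 CPM lay above all other libraries, and parental replicate 1 at 5.54 CPM below all of them.

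Col20a1, a FACIT chain, stood at 3.51, 4.09 and 6.14 CPM in parental and at 7.11, 6.38, 7.93 and 8.88 CPM in Ofd1-mutant libraries, with a log2 difference of 0.73 ± 0.26 (adjusted p = 0.257). In the Sufu clones R13 stood at 6.17 CPM and R1 at 24.3 CPM, and in sonidegib it stood at 6.24 and 10.04 CPM. Every treated or mutant library thus lay above every parental one, by a small margin in R13 and sonidegib replicate 1.

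Col2a1, Col11a2, Col23a1 and Col25a1 overlapped between the groups in each of the 4 comparisons. Col2a1, the main collagen of cartilage and vitreous, stood between 3.61 and 13.3 CPM over the 11 libraries, and its sonidegib values of 4.81 and 3.61 CPM lay below all 6 clone libraries. Col11a2, which joins type II fibrils, stood between 2.50 and 11.2 CPM. The transmembrane chain Col23a1 stood between 3.61 and 9.51 CPM, and parental replicate 3 was its highest library. Col25a1, a transmembrane collagen of neurons, stood between 0.179 CPM in sonidegib replicate 2 and 9.78 CPM in parental replicate 3. Its values in parental replicates 1 and 2 were 3.04 and 5.39 CPM. The parental libraries alone thus covered most of its range on the CPM scale, though not on the log2 scale. Sonidegib replicate 1 held 3.64 CPM, inside the parental range, so the sonidegib pair disagreed. The value in sonidegib replicate 2 came from 6 counts.

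**Figure D3:**
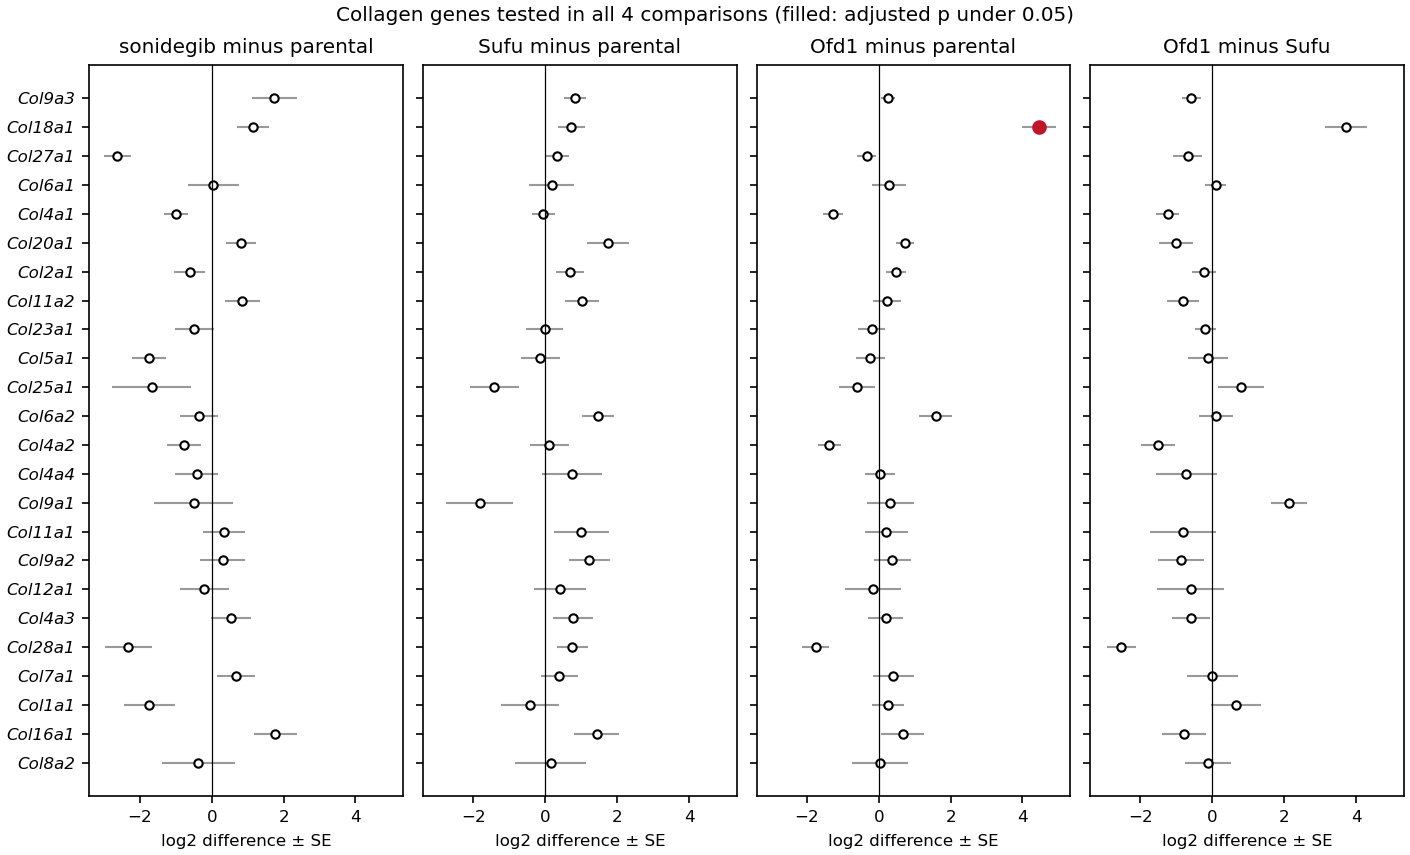
Log2 difference with its standard error for each of the 24 collagens tested in all comparisons, in 4 panels for sonidegib, Sufu mutant and Ofd1 mutant against parental and Ofd1 against Sufu mutant, on 1 shared axis. Filled and open points separate called from other genes, and Col18a1 at 4.46 in the Ofd1 panel is the 1 that was called.

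In the sonidegib comparison 25 collagens were tested and 0 were called, against 0.0652% of all 13809 genes. At an unadjusted p under 0.05 the edgeR test gave 8 collagens, against 14% of all genes, and DESeq2 called 2, Col27a1 and Col5a1, and 5.15% of all genes. With 3 parental and 2 sonidegib libraries, the groups did not overlap in 5 collagens that were higher and 5 that were lower, against 18% and 16.3% of all genes, so the counts are close to the background. The median log2 difference was -0.356, with 11 above 0 and 14 below, against 0.0361 over all genes.

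Col27a1, a fibrillar collagen of cartilage, had the lowest unadjusted p of the collagens in this comparison. It stood at 26.9, 29.9 and 24.5 CPM in the parental libraries against 2.97 and 5.87 CPM under sonidegib (replicates 1 and 2). Both drug-treated libraries lay far below the lowest parental one, and the log2 difference was -2.63 ± 0.38 (unadjusted p = 0.000244, adjusted p = 0.0847 in the edgeR test). In DESeq2, in a fit over all 11 libraries and with no filter on low counts, the gene was called. Leaving out sonidegib replicate 2, the log2 difference was -3.21 (adjusted p = 0.131), and leaving out replicate 1 it was -2.26 (adjusted p = 0.0111). In such fits the drug arm is 1 library, which is assumed to vary like the parental ones. The clones did not share this level: Sufu-mutant R13 held 45.9 CPM and R1 held 21.8 CPM, and the Ofd1-mutant libraries at 21.5, 12.1, 21.7 and 29.7 CPM.

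Col5a1, a chain that regulates fibril width, stood at 3.67, 6.96 and 6.17 CPM in parental libraries and at 1.87 and 1.46 CPM in sonidegib, a log2 difference of -1.75 ± 0.48 (adjusted p = 0.212). The drug-treated values were the lowest of the 11 libraries, while the clones ranged from 2.56 to 7.49 CPM. For Col4a1 sonidegib gave 10.8 and 9.62 CPM, both under the parental libraries, with a log2 difference of -1.001 ± 0.33 (adjusted p = 0.284). Col1a1 stood at 0.1001 and 0.209 CPM in sonidegib against 0.316 to 0.743 CPM in parental libraries, and the FACIT chain Col16a1 at 0.734 and 0.894 CPM against 0.133 to 0.354 CPM, both from few counts.

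The pair of sonidegib libraries disagreed on Col9a3. It stood at 64.2 CPM in replicate 1, inside the parental range of 53.8 to 83.4 CPM, and at 376 CPM in replicate 2, the highest collagen value of the series. The log2 difference was 1.74 ± 0.63 with both libraries (adjusted p = 0.321), 2.48 without replicate 1 (adjusted p = 0.0101) and -0.041 without replicate 2 (adjusted p = 0.979). Without sonidegib replicate 1 the test called 4 collagens, Col9a3, Col18a1, Col25a1 and Col27a1, and 23% of all genes, on a spread that comes from the parental libraries alone. Over the 22 collagens that reached 1 CPM, the difference from the parental mean had opposite signs in the pair of sonidegib libraries in 8. The correlation of that difference with exon length, which ran from 3095 to 15228 bases, was a Spearman rho of 0.20 in replicate 1 and -0.52 in replicate 2 (n = 22 genes, which share their libraries, as a description). With the trend on length removed, 0 collagens and 43 genes were called. The part of transcript length in these values was not tested further.

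**Figure D4:**
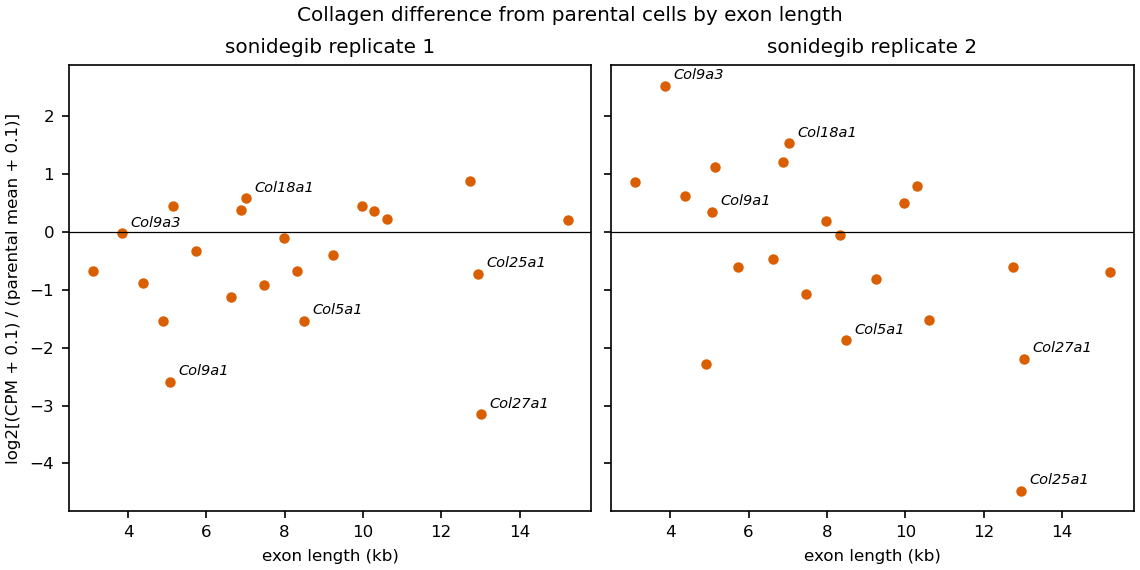
Difference of each sonidegib library from the parental mean (log2, pseudocount 0.1) against exon length in kb for the 22 collagens that reached 1 CPM. Longer collagens lie lower in replicate 2, and no such order is seen in replicate 1.

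In the Sufu-mutant comparison 25 collagens were tested and 0 were called, against 0% of all 13854 genes. At an unadjusted p under 0.05 there were 3 in the edgeR test (Col6a2, Col9a3 and Col20a1), against 9.68% of all genes, and DESeq2 called 0 collagens and 2.4% of all genes. The groups did not overlap in 6 collagens that were higher and 1 that was lower, against 11.9% and 14.8% of all genes. The median log2 difference was 0.419, with 18 above 0 and 7 below, against 0.0043 over all genes. For the type IX chain Col9a3, R13 held 82.0 CPM, inside the parental range, and R1 held 148 CPM, above it, with a log2 difference of 0.83 ± 0.30 (adjusted p = 0.485). For Col20a1 the log2 difference was 1.74 ± 0.57 (adjusted p = 0.451), and R1 carried most of it.

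The median absolute log2 difference between R13 and R1 over the 22 collagens was 0.957, against 0.553 between the R14 libraries and 0.900 between the sonidegib libraries. The Sufu clones were thus about as far apart as the replicate sonidegib libraries. Over the 3 Ofd1 clones the median log2 range was 1.07, which is not comparable with a difference between 2 libraries. Of Col4a4, a basement membrane chain, R13 held 9.90 CPM and R1 held 0.924 CPM. Col4a6, another such chain, reached 1.53 CPM in R16 and 0.0621 to 0.248 CPM in the other Ofd1-mutant libraries.

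Between the clone classes, Ofd1-mutant against Sufu-mutant, 25 collagens were tested and 0 were called by edgeR, against 0.00713% of all 14026 genes. At an unadjusted p under 0.05 there were 5 collagens, against 8.93% of all genes, and in the same 5 the groups did not overlap: Col9a1 and Col18a1 were higher, and Col4a1, Col4a2 and Col28a1 were lower. For all genes, 9.85% did not overlap and were higher and 8.34% did not overlap and were lower. DESeq2 called 4 of them, Col4a1, Col9a1, Col18a1 and Col28a1, and 1.84% of all genes. Col9a1, the FACIT partner of Col9a3, stood at 0.681 and 0.714 CPM in Sufu-mutant and at 3.20, 4.64, 1.66 and 2.93 CPM in Ofd1-mutant libraries, a log2 difference of 2.13 ± 0.51 (adjusted p = 0.350). In parental cells it stood at 0.981, 1.01 and 5.52 CPM, so the parental libraries overlapped both classes. The median log2 difference was -0.588, with 7 collagens above 0 and 18 below, against -0.00326 over all genes.

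The genes that make, cut, bind and accompany collagen were read from 4 lists, and 0 members were called in any of the comparisons by edgeR. With 0.0652%, 0%, 0.363% and 0.00713% of all genes called in the sonidegib, Sufu-mutant, Ofd1-mutant and clone comparisons, a count of 0 is near the background. For chain modification and folding, 22 members were tested in each comparison, and P4hb, the shared subunit of prolyl hydroxylase, was the highest at a mean of 292 CPM. It stood at 306 ± 16.3 CPM in parental (n = 3) and 284 ± 12.8 CPM in Ofd1-mutant libraries (n = 4). Ppib, a prolyl isomerase of the endoplasmic reticulum, had a mean of 193 CPM and Sec31a, a coat protein of vesicles that leave it, 171 CPM. Serpinh1, the chaperone of the collagen triple helix, had a mean of 0.225 CPM and no library above 0.601 CPM. It was chosen after its value was seen.

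For cleavage and crosslinking, 10 or 11 members were tested in each comparison. Adamts14, which removes the N-terminal propeptide of fibrillar collagen, stood at 30.1, 36.3 and 74.2 CPM in the parental libraries and at 5.71 and 3.69 CPM in the sonidegib libraries. Both drug-treated values lay below all others, with a log2 difference of -3.32 ± 0.50 that did not pass (adjusted p = 0.0847). In the clones it stood between 34.4 and 54.0 CPM, inside the parental range. Bmp1, which removes the C-terminal propeptide, had a mean of 41.1 CPM and the lysyl oxidase Loxl3 24.5 CPM. Of collagen receptors, the receptor kinase Ddr2 had a mean of 473 CPM, the integrin chain Itgb1 258 CPM and the receptor kinase Ddr1 203 CPM. Ddr2 stood at 497 ± 176 CPM in parental (n = 3) and 557 ± 137 CPM in Ofd1-mutant libraries (n = 4).

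Of basement membrane partners, 16 were tested in each comparison, and the laminin chain Lama5 was the highest at a mean of 360 CPM, ahead of Smoc1, a calcium-binding protein of basement membranes, at 153 CPM and the laminin chain Lamc1 at 131 CPM. Lama5 stood at 186, 247 and 418 CPM in parental, 87.0 and 40.2 CPM in sonidegib, 415 and 1123 CPM in Sufu-mutant and 278, 290, 414 and 465 CPM in Ofd1-mutant libraries. The sonidegib libraries lay below all others and Sufu-mutant R1 above all others. Its log2 difference from parental cells was -2.16 ± 0.48 for sonidegib (adjusted p = 0.148), 1.45 ± 0.48 for Sufu-mutant (adjusted p = 0.454) and 0.36 ± 0.30 for Ofd1-mutant libraries (adjusted p = 0.654), 3 comparisons that share the parental libraries.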

How the data were processed

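The authors deposited 1 table of raw counts per gene symbol with 1 column per library. Per the submitters' processing notes, STAR, DESeq2 and build mm9 were used, with the versions, the counting tool, its annotation and its strand setting not given in the sources used here. Per the labels, stranded libraries of 500 ng total RNA gave single-end reads of 75 bp. A row without a gene name held 0.0131% to 0.0192% of a library and was left out. Groups were compared pairwise with the quasi-likelihood test of edgeR 4.0.16 (R 4.3.3, robust, TMM, filterByExpr), two-sided, Benjamini-Hochberg over all genes tested, called at adjusted p under 0.05. The standard error is the absolute log2 fold change over the square root of F. CPM used TMM-scaled library sizes. Exon lengths were taken by symbol from GENCODE M21 (GRCm38), promoters from RefSeq (GRCm38.p6). Alternatives were DESeq2 1.42.0, other size factors, no filter, 1 fit over all libraries, a length correction, R14 summed, a replicate block and leaving out each library. The fit was tested on simulated data. Of genes changed by 1 on the log2 scale, it called 12% in the sonidegib and 42% in the Sufu-mutant comparison. In the Ofd1-mutant and the clone comparison it called 74% and 52%. At a change of 2 it called 76% to 90%, so smaller differences can go uncalled. Totals were 24308451 to 38241595 counts, so genes near 1 CPM rest on few counts. Replicate pairs differed beyond sampling noise, so none was counted as 1 library deposited again.

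Genes named in full were collagens called in any comparison or with a mean of at least 5 CPM over the 11 libraries, and Col18a1. From each list of other genes, members called or otherwise up to 3 with the highest mean were named. The collagens, the lists and the rule were chosen with earlier results of these data known.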

Additional observations from a re-analysis of the deposited data

Results flagged for a closer look

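Col4a6, a chain of basement membrane collagen, stood apart in 1 library: Ofd1-mutant clone R16 held 1.53 CPM, and the nearest of the other 3 Ofd1-mutant libraries held 0.248 CPM. The gap was 0.873 of the range of the group, above Dixon's 95% critical value for 4 samples. It was 1 of 22 collagens examined in that group, and chance flags about 1 in 20 groups. Col4a6 was among the 22 that reached 1 CPM only through this R16 value. Its next highest library, parental replicate 2, held 0.504 CPM. Clone R14 gave 2 of the 4 libraries, so the check cannot set the value apart from chance.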

How the results depend on the processing

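The count of 22 collagens at 1 CPM was 21 to 22 when any 1 library was left out. Collagens called after sonidegib went from 0 to 1 with no filter on low counts, 2 in DESeq2, 1 in a fit over all 11 libraries and 1 with the replicate block (Col27a1, log2 difference -2.77, adjusted p = 0.0151), and to 0 to 4 when 1 library was left out. By their labels, parental and sonidegib libraries share a replicate number, and nothing else marks them as pairs. Deviations of same-numbered libraries from their group mean correlated at 0.256 and -0.317. With 2 sonidegib libraries these deviations mirror each other, so the correlations cannot decide if the libraries were paired. In the Ofd1-mutant comparison the count of 1 became 5 in DESeq2, 0 with the R14 libraries summed and 0 to 1 when 1 library was left out, and Col18a1 was 4.25 with R14 summed and 4.16 to 4.70 when 1 was left out. Between the clone classes DESeq2 gave 4 and leaving out a library 0, and in the Sufu-mutant comparison leaving out a library gave 0. Genes called in all moved from 9 to between 0 and 3263 for sonidegib, from 0 to between 0 and 326 for Sufu-mutant, from 50 to between 0 and 770 for Ofd1-mutant and from 1 to between 0 and 266 for the clone classes. The cause of these shifts was not tested.

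Some uncalled collagens changed sign. Col23a1 after sonidegib was 0.12 with the replicate block. When 1 library was left out, the log2 differences after sonidegib ran from -0.91 to 0.88 for Col6a1, -0.73 to 0.11 for Col23a1 and -0.041 to 2.48 for Col9a3. In the Sufu-mutant comparison they ran from -0.19 to 1.04 for Col6a1, -0.40 to 0.23 for Col4a1, -0.25 to 0.60 for Col23a1 and -0.31 to 0.77 for Col27a1. In the Ofd1-mutant comparison they ran from -0.085 to 1.13 for Col6a1, -0.055 to 0.54 for Col11a2 and -0.44 to 0.40 for Col23a1. Between the clone classes they ran from -0.13 to 0.30 for Col6a1, -1.70 to 0.27 for Col20a1, -0.60 to 0.28 for Col2a1 and -0.37 to 0.0049 for Col23a1. Of 279 values with 1 library left out, 253 kept direction and side of the threshold, as did 268 of 282 under the other alternatives. These values belong to 49 gene results that were all uncalled in the main fit. Keeping the side of the threshold thus meant staying uncalled, and the tally does not measure how stable a call was. The Col18a1 call in the Ofd1-mutant comparison is outside it. Genes near 1 CPM rest on few counts.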
